A study of Mus musculus with 1111 samples.

Results

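The 10 genes described here are protein-coding genes of the mouse mitochondrial genome: mt-Nd1, mt-Nd2, mt-Nd4, mt-Nd5, mt-Nd6, mt-Co1, mt-Co2, mt-Co3, mt-Cytb and mt-Atp6. They were taken by name from the rows placed on the mitochondrial chromosome (MT), which held 13 of the 35583 genes in the tables. Their messages were counted in single microglia, the resident macrophages of the brain, profiled by Smart-seq2, which reads messages over their full length and gives every sorted cell a library of its own. The cells came from 3-month-old mice injected 20 hours earlier with plasma proteins carrying the fluorescent dye NHS-Atto647N. The labels place each cell in 1 of 3 groups by its plasma signal, called plasma none, plasma low and plasma high, so that all 3 groups come from injected mice. Strain, sex, genotype and the number of mice are not given in the sources used here. Labels further name the well and a TH number (1, 2 or 3), and what that number marks is not explained.

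Of 1111 labelled cells, 1045 had a column in the tables and the other 66 were not analysed here. Cells were kept at a minimum of 50000 reads assigned to genes and 500 genes detected. Of the 987 cells kept, 35.1% were plasma none, 35.6% plasma low and 29.4% (290 cells) plasma high. Reads of passing cells were summed by group and TH number into 9 sums of 21309816 to 49323522 reads. Levels are in CPM, the usual depth-scaled count, with TMM factors between sums. No label names an animal, so the groups are described without a test as the main result, and tests that take the TH numbers as samples are given as alternatives. Errors are the SD over the 3 TH numbers (n = 3), a spread between sets of wells and not between animals. All 8 microglia markers checked had reads in each group, with a summed level of 57092 to 68616 CPM over the 9 sums.

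Mitochondria keep a small circular genome that encodes core subunits of the respiratory chain and of the ATP synthase, together with the ribosomal and transfer RNAs needed to translate them. Both strands are transcribed as long polycistronic RNAs, and the messages are released largely by cutting out the transfer RNAs that lie between them. The Nd genes encode core subunits of complex I, which passes electrons from NADH to ubiquinone and pumps protons. mt-Cytb encodes cytochrome b of complex III, the Co genes encode the catalytic core of complex IV, cytochrome c oxidase, and mt-Atp6 encodes a membrane subunit of the ATP synthase proton channel. The remaining subunits of these complexes are encoded in the nucleus and imported. Pieces of the mitochondrial genome have also been copied into nuclear chromosomes, and such copies can be long and nearly identical to their source.

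The copies matter for these 10 genes, because a short read from a shared stretch matches both places. Every 50-base window of each gene was searched, on both strands, for an exact copy in any other transcript of the GENCODE M21 annotation (GRCm38). For mt-Co2, 100% of windows had such a copy, as had 99.9% of windows of mt-Co3 and 99.5% of windows of mt-Atp6. mt-Nd4 had a copy of 62.2% of its windows and mt-Co1 of 51.1%. The shares were 8.19% in mt-Nd2 and 7.61% in mt-Nd5, and no window of mt-Nd1, mt-Nd6 or mt-Cytb had a copy. For 5 of the members, mt-Co1, mt-Co2, mt-Atp6, mt-Co3 and mt-Nd4, the nearest copy lay in a single block of 4663 bases on the minus strand of chromosome 1 (chr1:24611535-24616197), annotated as a row of unprocessed pseudogenes. Over the aligned bases the copy differed from its source at 0 of 681 positions for mt-Co2 (pseudogene Gm28661), 0 of 678 for mt-Atp6 (Gm10925), 0 of 783 for mt-Co3 (Gm28437) and 0 of 876 for the first part of mt-Nd4 (Gm28439).

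The 3 stretches below show a gene with no base that tells it from its copy, the point where the copied block begins inside mt-Co1, and the start of a gene with no copy. All are 60 bases long, written 5′ to 3′ along the gene's own strand, and capitals mark the bases that differ between gene and copy. The first pair is the start of mt-Co2 (MT:7013-7072, plus strand) and the same stretch of Gm28661 (chr1:24615506-24615565, minus strand), with no capital because no base differs. The second pair is bases 1054 to 1113 of mt-Co1 (MT:6381-6440, plus strand) and the matching stretch of Gm29216 (chr1:24616138-24616197, minus strand). The last is the start of mt-Nd1 (MT:2751-2810, plus strand).
mt-Co2: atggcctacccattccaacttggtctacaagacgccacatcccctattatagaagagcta
Gm28661: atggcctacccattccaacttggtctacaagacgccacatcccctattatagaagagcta
mt-Co1: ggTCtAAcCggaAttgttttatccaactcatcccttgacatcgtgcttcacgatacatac
Gm29216: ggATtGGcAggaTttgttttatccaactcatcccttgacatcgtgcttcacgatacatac
mt-Nd1: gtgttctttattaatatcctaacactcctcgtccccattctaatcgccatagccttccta
In the mt-Co1 pair, counted from the first base of mt-Co1 and with its base first, the differences are T1056A, C1057T, A1059G, A1060G, C1062A and A1066T. From base 1067 to the last base of mt-Co1, base 1545, the copy is identical, so only the earlier part of the gene can be told from this pseudogene.

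The 3 members that are copied over nearly their whole length had almost no reads. In all passing cells, with 282054715 reads in genes, mt-Co2 had 4 reads in 4 cells, mt-Atp6 had 8 reads in 6 cells and mt-Co3 had 31 reads in 15 of 987 cells. By contrast mt-Co1, which encodes the largest catalytic subunit of the same enzyme complex as mt-Co2 and mt-Co3, had 1046955 reads. mt-Cytb had 704583 reads, mt-Nd1 300853, mt-Nd5 249072, mt-Nd2 132996, mt-Nd4 111512 and mt-Nd6 62191. The plot of level against shared sequence shows both sets apart. There mt-Co1 and mt-Nd4, which keep 731 and 502 windows without a copy, are among the genes with many reads. The other mitochondrial genes, which are not in the plot, did not all keep to this split. mt-Nd3 had 7628 reads with 97.99% of its windows copied, and mt-Atp8 had 0 reads with no window copied. mt-Nd4l, with 98.8% of its windows copied, had 54 reads.

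None of the 9 pseudogenes that are the nearest copy of a mitochondrial gene has a row in the tables, and of 13523 annotated pseudogenes only 2 have one. The only gene of the list of nuclear copies with a row was Gm28434. It is annotated as protein coding, shares no window with the mitochondrial genes and had 0 reads. Of all 12 annotated genes that share at least 1 window with a member, 12 are pseudogenes and 0 have a row, so the tables hold no read assigned to them. The columns of TH 2 and TH 3 carry a note of alignments reduced to top hits and those of TH 1 do not. The 3 low members had 20 reads together in TH 1, 8 in TH 2 and 15 in TH 3. Whether reads that match 2 places were left out in counting is not stated, and its part in these low values was not tested. The 3 low members are therefore not compared between groups: mt-Co2 had 0, 0 and 4 reads in plasma none, low and high, mt-Atp6 had 1, 1 and 6, and mt-Co3 had 6, 13 and 12, and a count of 0 allows up to 3 reads by counting error alone.

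**Figure D1:**
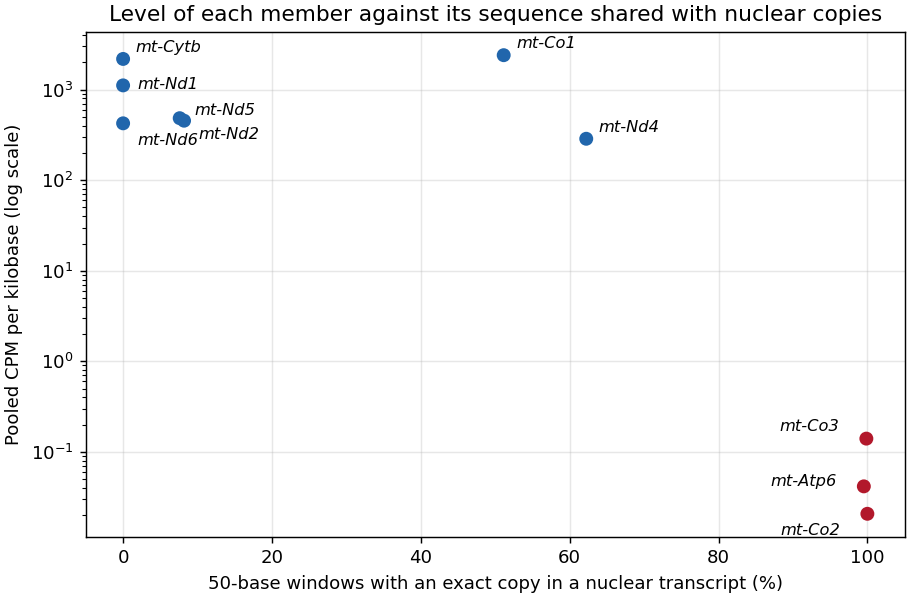
Level of each of the 10 genes in all passing cells (CPM per kilobase, log axis) against the share of its 50-base windows with an exact copy in another annotated transcript (%). Red points are the 3 genes with at least 99.5% of windows copied, which had 4, 8 and 31 reads, and blue points are the other 7 genes, which had 62191 reads or more.

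The other 7 genes each passed the filter on low values, which asked for a mean of 20 CPM or more and for detection in 10% or more of the cells of a group. Summed, the members held 7197, 6979 and 5391 CPM in plasma none of TH 1, 2 and 3 (6522 ± 986, SD, n = 3). The sum was 8487, 9628 and 7131 CPM in plasma low (8415 ± 1250) and 12582, 13985 and 8444 CPM in plasma high (11670 ± 2881). Within every TH number the order was none, low, high. The plasma high sums all lay above the plasma none sums, while plasma low overlapped both, and TH 3 was the lowest of each group. The log2 ratio of the sum, taken within each TH number, was 0.82 ± 0.18 for plasma high against plasma none (1.76-fold), 0.37 ± 0.12 for plasma low against plasma none and 0.45 ± 0.18 for plasma high against plasma low. The first and second of these ratios share the plasma none cells, and each group enters 2 of the 3 ratios.

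In plasma high against plasma none, 7 of 7 measured members were higher in 3 of 3 TH numbers, a pattern found in 18.8% of the 5534 genes tested. A log2 ratio is of CPM plus 1, and a gene was called at a mean of 1.5-fold or more if all 3 TH numbers had the same sign. All 7 were called higher by this rule, against 9.34% of genes tested. mt-Nd5 alone also reached 2-fold, as did 3.09% of genes. Without TH 1 or without TH 2 the number called at 1.5-fold was 6, with mt-Nd2 at 0.55 and 0.52, and mt-Nd5 no longer reached 2-fold, at 0.98 and 0.64. mt-Nd6 reached 2-fold without TH 1, at 1.01, and without TH 3, at 1.23. The median log2 ratio of the 7 was 0.84 ± 0.22, and the median of all genes tested was 0.054. For 5 of the 7, mt-Nd1, mt-Nd2, mt-Nd4, mt-Nd5 and mt-Co1, the 3 sums of plasma high lay above the 3 sums of plasma none, against 8.51% of genes tested.

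When the TH numbers were instead taken as 3 samples a group, the calls differed with the tool and design. edgeR's quasi-likelihood test without a block called 0 of 7 members and 0% of the 6953 genes fitted as higher in plasma high against plasma none, with Benjamini-Hochberg adjusted p of 0.259 to 0.497 for the members. At an unadjusted p under 0.05 it had 7 of 7 members and 575 genes. DESeq2 with the TH number in its design called 7 of 7 members, and 0.993% of genes were called higher. For plasma low against plasma none DESeq2 called 0 of 7 and 0.0863% of genes, and for plasma high against plasma low it called 2 of 7 and 0.11% of genes. In both of these edgeR without a block called 0 members and 0% of genes as higher.

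Among the complex I genes, mt-Nd1 encodes a membrane subunit next to the ubiquinone site. It stood at 906, 799 and 609 CPM in plasma none, 1054, 1054 and 837 CPM in the low group, and 1466, 1603 and 942 CPM in the high group of TH 1, 2 and 3. The plasma high sums were all above the plasma none sums, and the lowest of them lay below the 2 higher sums of plasma low. The high-to-none log2 ratio was 0.78 ± 0.20.

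mt-Nd2, mt-Nd4 and mt-Nd5 encode proton-pumping membrane subunits of complex I that resemble bacterial antiporters. For mt-Nd2 the levels were 352.5, 310.9 and 342.5 CPM in plasma none, 593, 479 and 464 CPM in the low group, and 631, 597 and 397 CPM in the high group. Both plasma-carrying groups lay above plasma none without overlap and overlapped each other, with log2 ratios of 0.60 ± 0.16 for low against none, 0.66 ± 0.39 for high against none and 0.06 ± 0.27 for high against low. This was the member with the smallest difference between plasma high and plasma low.

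mt-Nd4 had 330.6, 214.9 and 237.9 CPM in plasma none, 455, 418 and 356.7 CPM in the low group, and 653, 445 and 395 CPM in the high group. Again both groups lay above plasma none without overlap, and the log2 ratio was 0.67 ± 0.26 for low and 0.92 ± 0.17 for high against none. Of the 7 members this was the largest mean ratio of plasma low to plasma none.

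mt-Nd5 had 575, 482 and 552 CPM in plasma none, 636, 931 and 728 CPM in the low group, and 1201, 1653 and 643 CPM in the high group. TH 3 stood apart here, since its plasma high sum lay below its plasma low sum while the other two TH numbers went the other way. The high-to-none log2 ratio was therefore uneven, 1.06, 1.77 and 0.22 in TH 1, 2 and 3 (1.02 ± 0.78), and 1 cell supplied up to 28.2% of this gene's reads in a sum.

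mt-Nd6 is the only one of the 10 genes read from the minus strand, and its end overlaps the end of mt-Nd5 by 14 bases. It had 182.3, 122.4 and 125.2 CPM in plasma none, 182.5, 190.4 and 212.7 CPM in the low group, and 346.7, 369.03 and 175.7 CPM in the high group. As with mt-Nd5, plasma high was the top group in TH 1 and TH 2 and lay below plasma low in TH 3, and the plasma high and plasma none sums overlapped. The high-to-none log2 ratio was 0.998 ± 0.553. How the counting used strand is not stated, so reads of the 14 shared bases cannot be assigned to either gene here. For the same reason, reads of RNA from the opposite strand may be counted in mt-Nd6, and their part was not tested.

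mt-Cytb, for complex III, had 2038, 1826 and 1309 CPM in plasma none, 2343, 2701 and 1507 CPM in the low group, and 3341, 4187 and 1987 CPM in the high group. All 3 TH numbers had the order none, low, high, and the groups overlapped with the TH 3 sum the lowest of each. Its log2 ratio was 0.84 ± 0.32 for high against none and 0.51 ± 0.12 for high against low.

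mt-Co1, for complex IV, was the member with the most reads, at 2813, 3223 and 2216 CPM in plasma none, 3224, 3855 and 3026 CPM in the low group, and 4942, 5130 and 3905 CPM in the high group. The plasma high sums lay above all 6 others. Its high-to-none log2 ratio was 0.81, 0.67 and 0.82 in TH 1, 2 and 3 (0.77 ± 0.08), the smallest spread among the 7 members.

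**Figure D2:**
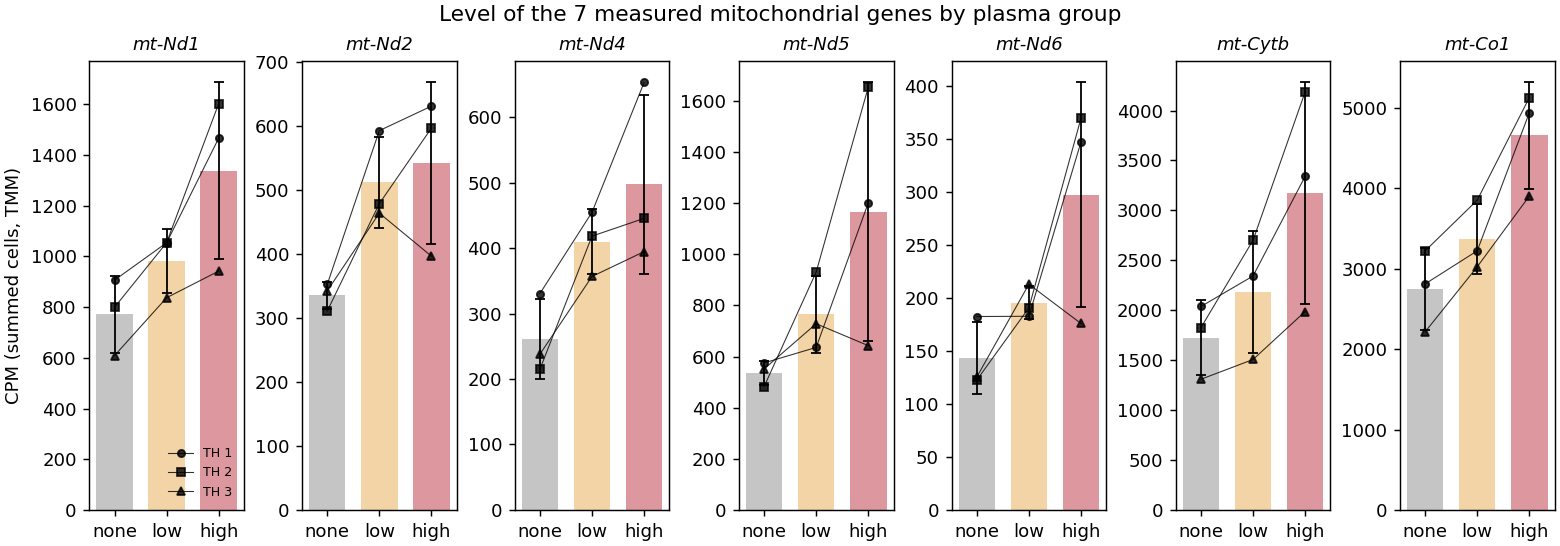
Level of each of the 7 measured genes (CPM, linear axes from 0) in plasma none, low and high. Bars are means over 3 TH numbers, whiskers their SD, and symbols joined by lines are the sums of 1 TH number, which go up at both steps in 3 of 3 TH numbers for mt-Nd1, mt-Nd4, mt-Cytb and mt-Co1.

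In plasma low against plasma none, 7 of 7 members were higher in 3 of 3 TH numbers, against 16.7% of the 5489 genes tested, and the median log2 ratio was 0.47 ± 0.21, with 0.049 for all genes tested. mt-Nd2 and mt-Nd4 reached 1.5-fold, against 6.03% of genes, and the count was 3 without TH 1 and 1 without TH 2. Between the groups 4 members did not overlap (mt-Nd2, mt-Nd4, mt-Nd5 and mt-Nd6), against 5.34% of genes. The ratio of mt-Nd6 in TH 1 was 0.0018 and so near no difference.

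In plasma high against plasma low, 4 of 7 members were higher in 3 of 3 TH numbers (mt-Nd1, mt-Nd4, mt-Co1 and mt-Cytb), against 14.1% of the 5709 genes tested. None reached 1.5-fold, a size met by 5.48% of genes, and mt-Co1 alone did not overlap, against 5.2% of genes. The median log2 ratio was 0.47 ± 0.24 for the members and 0.0056 for all genes tested. mt-Nd2, mt-Nd5 and mt-Nd6, the other 3 members, were lower in plasma high than in plasma low in TH 3, at -0.23, -0.18 and -0.27. Without TH 3, 2 members reached 1.5-fold in this comparison.

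The order none, low, high was thus complete in 3 of 3 TH numbers for 4 of 7 members. Among the 5210 genes tested in all comparisons, 2.11% had that order. Of the 21 pairs of member and TH number, 18 had it.

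The members can be set against each other only per length. On CPM per kilobase in plasma none, mt-Co1 (1780 ± 327.8) and mt-Cytb (1507 ± 327.7) were highest, with overlapping ranges and mt-Co1 the higher in 3 of 3 TH numbers, followed by mt-Nd1 (806 ± 157.4). mt-Nd2 (323.02 ± 21) lay above mt-Nd5 (294.03 ± 26) in 3 of 3 TH numbers. mt-Nd5 and mt-Nd6 (276.1 ± 65) did not differ beyond their spread, and mt-Nd4 was lowest (189.5 ± 44). In plasma low the order was the same, from 2180 ± 280.2 for mt-Co1 to 297.4 ± 36 for mt-Nd4. In plasma high mt-Co1 (3016 ± 427), mt-Cytb (2772 ± 970) and mt-Nd1 (1397 ± 364.5) again led, and mt-Nd5, mt-Nd6 and mt-Nd2 followed at 639 ± 277.6, 573 ± 203.7 and 522 ± 122.03, an order inside their spread.

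When the length was counted only in windows without a copy, mt-Nd4 moved from the lowest place to the fourth, at 659, 428 and 474 CPM per 1000 windows in plasma none of TH 1, 2 and 3. mt-Co1 then stood at 3763 ± 693 and mt-Cytb at 1574 ± 342.3, so that these neighbours differed beyond their spread on this scale. The place of mt-Nd4 and the distance of mt-Co1 from mt-Cytb thus depend on how shared sequence is treated.

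Most of the member reads came from the same genes in each group. mt-Co1 took 42.1% ± 3.66 of them in plasma none, 40.1% ± 2.22 in the low group and 40.7% ± 4.95 in the high group. mt-Cytb took 26.2% ± 2.02, 25.6% ± 3.88 and 26.7% ± 3.20, and mt-Nd1 took 11.8% ± 0.708, 11.7% ± 0.734 and 11.4% ± 0.252. From plasma none to plasma high, 6 of 7 members shifted by less than the SD of that difference. The exception was mt-Nd4, with 0.32 ± 0.25 percentage points and 1 sign in all 3 TH numbers. From plasma none to plasma low the share of mt-Nd4 was higher by 0.764, 1.27 and 0.588 percentage points in TH 1, 2 and 3 (0.87 ± 0.35), and that of mt-Nd2 by 2.09, 0.519 and 0.154. From plasma low to plasma high the share of mt-Nd2 was lower by 1.97, 0.706 and 1.81 percentage points in TH 1, 2 and 3, and that of mt-Nd4 was lower in all 3 as well. The opposite-strand gene mt-Nd6 had 0.205 to 0.317 reads per read of mt-Nd5 over the 9 sums, with no common direction between groups.

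Single cells carried the members in a graded way. The median share of a cell's reads in the 10 genes was 0.653%, 0.605% and 0.548% in plasma none of TH 1, 2 and 3, 0.878%, 0.857% and 0.717% in the low group, and 1.02%, 1.15% and 0.743% in the high group. Of plasma low cells, 63.6%, 73.5% and 69.8% lay above the plasma none median of their TH number, and of plasma high cells 78.2%, 86.5% and 74.2%. The groups nevertheless overlapped widely, and the upper quartile of plasma none (0.912% in TH 1) lay above the lower quartile of plasma high (0.682%).

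In each TH number plasma high had the most cells with a high share. At least 2% of reads fell in the members in 3 cells of plasma none (0.867%, exact 95% Clopper-Pearson interval 0.179% to 2.51%), in 13 cells of plasma low (3.70%, 1.99% to 6.25%) and in 24 of the 290 cells of plasma high (8.28%, 5.37% to 12.1%). These intervals cover counting error only. By TH number such cells numbered 1, 2 and 0 in plasma none, 2, 9 and 2 in plasma low, and 7, 13 and 4 in plasma high. TH 2 held most of them, and without it the shares were 0.429%, 1.71% and 5.67%, while without TH 3 plasma none was at 1.31%. No member read was found in 4, 1 and 0 cells of the 3 groups, and 0 of 290 cells, by a limit of 3 counts, allows a share of up to 1.03%. The highest share of a cell was 2.21% in plasma none, 4.14% in the low group and 7.10% in the high group. The coefficient of variation over cells was 0.608 ± 0.048, 0.560 ± 0.013 and 0.684 ± 0.018.

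**Figure D3:**
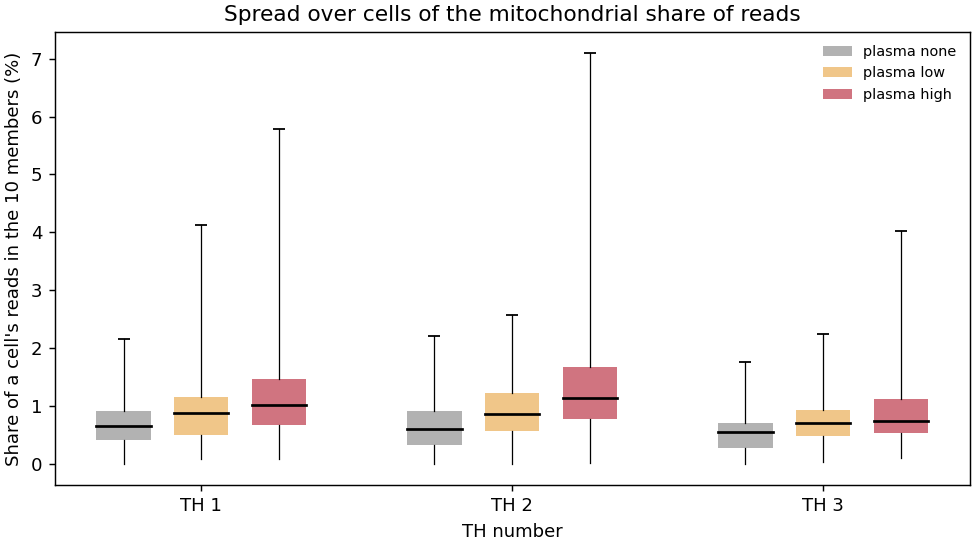
Share of a cell's reads in the 10 genes (%) by TH number and plasma group. Boxes span the quartiles, black lines are medians and whiskers reach the lowest and highest cell. In each TH number the median goes up from none to low to high, and the highest cell of plasma high reaches 4.03% to 7.10%.

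Thinned to 50000 reads per cell, to give every cell the same depth, cells held a read of 4.85 ± 0.17 of the 7 measured members in plasma none, 5.84 ± 0.15 in the low group and 5.96 ± 0.08 in the high group. All 7 were found in 20.2% ± 2.63, 43.3% ± 10.2 and 40.3% ± 2.85 of cells. mt-Co1 was found in 92.2% ± 3.66 of thinned plasma none cells and 98.3% ± 1.52 of plasma high cells. At the other end mt-Nd6 was found in 54.3% ± 4.96 and 72.3% ± 5.17, and mt-Nd2, in 63.9% ± 1.44 and 83.1% ± 1.96. At full depth the share for mt-Nd2 was 70.2% ± 1.27 in plasma none and 88.9% ± 1.91 in plasma high. No cell type that lacks these genes was present to give a background share.

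In cells with a read of the gene the level also differed. The median for mt-Co1 was 2569, 2819 and 2157 CPM in plasma none and 4106, 4636 and 3560 CPM in plasma high, with no overlap. For mt-Nd5, by contrast, the median among positive cells was 741 ± 28 CPM in plasma none, 798 ± 145.7 in the low group and 867 ± 236.6 in the high group, which overlapped, while the share of thinned cells with a read was 58.7% ± 2.52, 76.4% ± 5.36 and 77.3% ± 3.59.

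Across cells of the same group and TH number, members varied together only loosely. Over the 21 pairs of measured members, the median Spearman correlation of their CPM over the 9 sets of cells ran from 0.17 to 0.58, with a middle value of 0.26. The highest was mt-Nd5 with mt-Nd6 (0.53 to 0.66 over the 9 sets), the pair that overlaps on opposite strands, and the next was mt-Co1 with mt-Cytb at 0.41. These correlations are over cells that share a library preparation, and the part of counting noise in genes with few reads was not tested.

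Depth and well position varied with the groups as well. The median reads per cell were 175699, 277222 and 198518 in plasma none and 235108, 404743 and 228822 in plasma high of TH 1, 2 and 3. Within the 9 sets of cells the Spearman correlation of the member share with reads per cell lay between -0.14 and 0.10, and that with genes per cell between -0.24 and 0.22. The median genes per cell were lowest in plasma none in every TH number, at 1729.5, 1631 and 1728, with 2213, 1768 and 2016.5 in plasma low and 2045, 1882.5 and 1889 in plasma high. Their part in the detection of the members was not tested. In every TH number plasma none filled well columns 1 to 8, plasma low 9 to 16 and plasma high 17 onwards, so that group and well column cannot be told apart. Within a group, the right columns minus the left columns gave a difference in median share of -0.060 ± 0.073 percentage points in plasma none, -0.00054 ± 0.077 in the low group and -0.035 ± 0.14 in the high group. In the summed reads the median log2 ratio of right to left columns over the 7 members was -0.02 in plasma none and -0.05 in plasma low. Within plasma high it was 0.21, with 0.36, 0.48 and -0.13 in TH 1, 2 and 3, against a median of 0.47 for plasma high against plasma low. Across the border, the 4 nearest columns of plasma low exceeded those of plasma none by 0.255 ± 0.038 points, and those of plasma high exceeded those of plasma low by 0.187 ± 0.139 points.

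Averaged over TH numbers, column medians ran from 0.445% to 0.707% in plasma none, 0.752% to 0.887% in the low group and 0.797% to 1.10% in the high group. On this average all 8 plasma none columns lay below all plasma low columns.

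**Figure D4:**
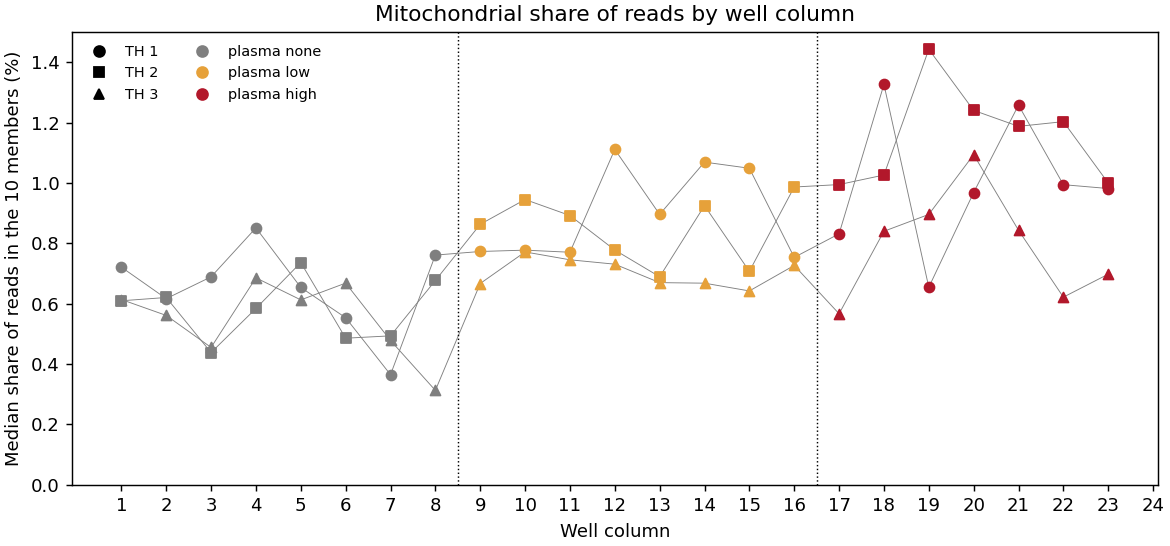
Median share of reads in the 10 genes (%) over the cells of each well column, with 1 symbol per TH number, lines joining the columns of a TH number and dotted lines at the group borders. Averaged over TH numbers, the plasma none columns lie at 0.445% to 0.707% and the plasma low columns at 0.752% to 0.887%.

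The nuclear genes for the same complexes had smaller ratios. Of 79 nuclear subunit genes of complexes I to V in the tables, 70 were tested in plasma high against plasma none, with a median log2 ratio of 0.23 ± 0.06. Of these, 18 were higher and 1 was lower in 3 of 3 TH numbers, and 6 were called at least 1.5-fold higher and 0 lower. That is 25.7% higher in 3 of 3 TH numbers beside 18.8% of all genes tested, and 8.57% called at 1.5-fold beside 9.34%. The share of all genes lower in 3 of 3 TH numbers was not taken, here or for the lists below. In plasma low against plasma none the median was 0.11 ± 0.14 over 69 genes, with 15 higher (21.7%, beside 16.7% of all genes) and 3 lower in 3 of 3 TH numbers. Of the 69, 7 were called at least 1.5-fold higher (10.1%, beside 6.03% of all genes) and 0 lower. The summed CPM of the members was 1.47, 1.51 and 1.25 times that of the nuclear genes in plasma none, 1.47, 2.01 and 1.57 times in the low group, and 2.26, 2.47 and 1.77 times in the high group. The plasma high ratios all lay above the plasma none ratios.

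By complex, the medians of the nuclear genes in plasma high against plasma none were 0.27 ± 0.12 for complex I (31 tested, 6 higher and 0 lower in 3 of 3 TH numbers) and 0.39 ± 0.09 for complex II (4 tested, 1 higher and 0 lower), which has no mitochondrially encoded subunit. They were 0.24 ± 0.03 for complex III (8 tested, 2 higher and 0 lower), 0.34 ± 0.03 for complex IV (12 tested, 6 higher and 0 lower) and 0.09 ± 0.14 for complex V (15 tested, 3 higher and 1 lower). Beside the 18.8% of all genes, the share higher was 19.4% in complex I, 20% in complex V, 25% in complexes II and III and 50% in complex IV. In complex I the largest difference was Ndufa1, an accessory subunit, at 0.94 ± 0.75, and the lowest was Ndufa8, another accessory subunit, at -0.48 ± 0.53. In complex IV they were Cox7b at 0.94 ± 0.59 and Cox7a2l at -0.18 ± 0.28. In complex II Sdhc reached 0.53 ± 0.53 and Sdha, the flavoprotein, 0.16 ± 0.41.
In complex III Uqcr10 reached 0.49 ± 0.77 and Uqcrc2 -0.11 ± 0.68, and in complex V Atp5j2 reached 0.69 ± 0.83 and Atp5l -0.61 ± 1.35. For most of these extremes the SD over TH numbers was near or above the mean.

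Genes that copy, transcribe and process the mitochondrial genome were mostly too low to test. Of 16 genes for transcription and replication of mitochondrial DNA, 5 were tested in plasma high against plasma none, with a median log2 ratio of 0.09 ± 0.19. Of the 5, 0 were higher in 3 of 3 TH numbers, beside 18.8% of all genes tested, and 1 was lower. The single-strand binding protein gene Ssbp1 was the lowest, with -0.42 ± 0.40, and the nuclease gene Mgme1 the highest, with 0.65 ± 1.78. Of 20 genes in the tables for processing and stability of mitochondrial RNA, 5 were tested, with a median of -0.06 ± 0.42 and none higher or lower in 3 of 3 TH numbers. There Lrpprc, whose protein stabilises mitochondrial messages, had -0.13, 4.02 and -0.12 in TH 1, 2 and 3, and Fastk had -0.25 ± 0.48.

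Genes for mitochondrial import and outer membrane proteins are often read as a gauge of mitochondrial mass. Over 19 of them the median high-to-none log2 ratio was 0.03 ± 0.06. Of these, 4 were higher in 3 of 3 TH numbers, a pattern found in 18.8% of all genes tested, and 2 were lower. Tomm70a had 0.72 ± 1.88 and Tomm40, which forms the import pore, had -0.76 ± 0.87. Of 7 regulators of mitochondrial biogenesis, 4 were tested, with a median of 0.24 ± 0.29. Of the 4, 2 were higher in 3 of 3 TH numbers, beside 18.8% of all genes tested. Pprc1, a coactivator related to PGC-1, had 0.81 ± 0.42, and Gabpa, a subunit of nuclear respiratory factor GABP, had -0.21 ± 1.12.

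The 5 genes outside the mitochondrial genome whose log2 CPM followed the summed members most closely over the 9 sums were taken from 3688 genes with a mean of at least 50 CPM. They were Ap3d1, an adaptor subunit of vesicle traffic (Pearson r = 0.953), Itm2b (0.952), the actin-severing gene Cfl1 (0.949), Strada (0.939) and Ccdc152 (0.933). The 9 sums share groups and TH numbers, and the genes were picked for this likeness, so r is a description. In plasma none, low and high Cfl1 stood at 468, 584 and 669 CPM and Itm2b at 4994, 5492 and 6133 CPM.

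Other cell types left few traces in these cells. Only 1 of 987 cells carried 3 or more markers of another type at 10 CPM or more, from the red cell list. Neutrophil and lymphocyte markers, 5 each, had no read in any group, and Cldn5 of endothelial cells, Mog of oligodendrocytes and Ly6c2 of monocytes had none either. Summed over each list, the levels over the 9 sums were 0 to 22.2 CPM for 7 border-associated macrophage markers, 0 to 8.42 CPM for 5 monocyte markers, 4.68 to 26.1 CPM for 5 endothelial markers and 0 to 27.8 CPM for 5 astrocyte markers. They were 0 to 4.65 CPM for 5 red cell markers, 0 to 55.3 CPM for 5 neuron markers and 20.3 to 83.4 CPM for 5 oligodendrocyte markers. The oligodendrocyte sum was 21.2 to 67.5 CPM in plasma none and 56.1 to 83.4 CPM in plasma high. The neuron sum was 0 to 0.646 CPM in plasma none, 0 to 2.32 CPM in plasma low and 0 to 55.3 CPM in plasma high. The part of either list in the differences of the members was not tested.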

How the data were processed

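Per the submitters' processing notes, bcl2fastq, Trim Galore, STAR 2.5.3a, Seurat and mm10 were used, with no roles given. The deposited tables, 1 per TH number, hold values that were read as counts of reads per gene and cell, since all but 2 are whole and their totals differ between cells. Per the file headers, each column is named as a mean, beside a column giving the number of probes. The 1 deposited column with the 2 values that are not whole was taken to hold expected counts, and these were rounded. Columns were matched to cells by well and TH number. Counts of passing cells were summed by group and TH number and scaled with TMM (edgeR 4.0.16, R 4.3.3). Ratios used CPM with a pseudocount of 1. Sums of counts with no named animals allow no test of the groups across animals. For this reason edgeR's quasi-likelihood test and DESeq2 1.42.0 serve as alternatives only, tested on simulated data first. Other alternatives were scaling, pseudocount, filters, wells, the most abundant cell, cell weighting, depth and TH numbers left out.

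Each cell was sorted into its own well, so no doublet caller was run, and cells were not clustered. Sequences and coordinates come from GENCODE M21, whose coordinates equal those of the tables for all 13 mitochondrial genes. The named genes were the 10 members, the other mitochondrial genes, the largest and smallest ratio of each related list in plasma high against plasma none at a mean of at least 20 CPM, the 5 genes most like the summed members, and copies with a row. The members and lists were chosen with earlier results of these data known. Cells were thinned with random seed 7.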

Additional observations from a re-analysis of the deposited data

Results flagged for a closer look

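Of the mitochondrial protein-coding genes outside the 10, 2 had reads, and the nearest copy of each lies in the block on chromosome 1. mt-Nd3, a complex I subunit, had 7628 reads in passing cells although 97.99% of its 50-base windows had a copy, which differs from it by 1 base (T3C, counted from the first base of mt-Nd3, its base first). mt-Nd3 had 24.9 ± 7.76 CPM in plasma none (SD over 3 TH numbers), 26.7 ± 9.60 in the low group and 34.01 ± 14.9 in the high group. High against none gave mt-Nd3 log2 ratios of 0.53, -0.04 and 0.65 in TH 1, 2 and 3. mt-Nd4l, also of complex I, had 54 reads and 98.8% of windows with a copy. mt-Atp8 had 0 reads and no window with a copy in an annotated transcript, and the genome between annotated transcripts was not used here.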

How the results depend on the processing

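Of 560 recomputed values, 528 moved by less than the SD over TH numbers, or by less than 1.5 times for counts, 32 moved by more and 0 turned the direction of a value larger than its SD. The alternatives for the log2 ratios of single members all stayed within it. The median log2 ratio of the members lay between 0.66 and 0.94 for plasma high against plasma none, 0.33 and 0.54 for plasma low against plasma none, and 0.28 and 0.54 for plasma high against plasma low. For plasma high against plasma low, the difference in the median member share was 0.153 percentage points, 0.0844 (without TH 2) to 0.217 with 1 TH number left out, and 0.297 from pooled reads. Members at least 1.5-fold higher in that comparison numbered 2 by DESeq2, and 0 to 2 with 1 TH number left out. For plasma low against plasma none the count was 1 with DESeq2 size factors, 1 with cells of at least 100000 reads and 1000 genes, and 1 to 3 with 1 TH number left out (1 without TH 2), and the tests called 0 by edgeR with or without a block and 0 by DESeq2. For plasma high against plasma none, edgeR's quasi-likelihood test called 0 of 7 members without a block (adjusted p 0.259 to 0.497, 7 of 7 at an unadjusted p under 0.05) and 0 of 6953 genes, with 575 at an unadjusted p under 0.05. DESeq2 called 7 of 7 members. With the TH number as a replicate block, edgeR called 2 of 7 members, mt-Co1 (adjusted p = 0.0131) and mt-Cytb (adjusted p = 0.0474), and 5 genes in all, with 4 higher, or 0.0575% of genes. The labels do not say what the TH number marks. The correlation of the deviations of sums with the same TH number was 0.0745 to 0.159 across genes, and 9 of 9 sums correlated best with their own number. These p-values measure the spread between sets of wells, which may be technical. Medians of nuclear lists near 0 changed sign with the setting in plasma high against plasma none: from -0.11 to 0.27 for RNA processing and stability, from -0.10 to 0.13 for import, and from -0.02 to 0.13 for transcription and replication. The median of the nuclear complex V genes in the same comparison, 0.09 in the main setting, ran from 0.01 to 0.28. The 4, 8 and 31 reads of mt-Co2, mt-Atp6 and mt-Co3 allow no comparison at any setting.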

Other observations

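A few gene groups outside the respiratory chain were measured beside the members. The immediate early and heat shock list had 4 genes tested in plasma high against plasma none, with a median log2 ratio of -0.20 ± 0.22. Of these, 0 were higher and 2 were lower in 3 of 3 TH numbers. Of all genes tested, 18.8% were higher in 3 of 3 TH numbers, and the share lower was not taken. Jun, a component of the AP-1 transcription factor, was at -0.66 ± 0.29 and Jund, a related component, at 0.42 ± 0.41. Of the nuclear-retained long RNAs, 3 were tested, with a median of -0.45 ± 0.48. Malat1 had -0.54, -0.16 and -0.41 in TH 1, 2 and 3, and Neat1, the scaffold of paraspeckles, had -0.68, -0.43 and -1.12. The 8 microglia markers had a median of 0.02 ± 0.09. Of the 8, 3 were higher in 3 of 3 TH numbers, beside 18.8% of all genes tested, and 3 were lower.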
